A study of Homo sapiens with 12 samples.

Results

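GLI1, GLI2, GLI3, SMO, PTCH1, BOC, CDON, GAS1, HHIP and SUFU, 10 genes of the Hedgehog pathway, were followed in SK-UT-1 uterine leiomyosarcoma (uLMS) cells treated with inhibitors of bromodomain and extra-terminal (BET) proteins. They were chosen by name from the pathway, as its receptors, coreceptors, inhibitors, transducer and transcription factors (TFs), and all 10 are among the 22784 gene symbols of the expression table. SK-UT-1 is an established line from a uterine smooth muscle tumor, so every value below comes from a single cell line. The cells received vehicle (VEH, DMSO in the study's description), 5 µM JQ1 or 5 µM I-BET 762 for 48 h, and bulk RNA was sequenced. Labels name 12 libraries, of which 10 were analysed here, 3 with VEH (13, 14 and 15), 4 with JQ1 (17 to 20) and 3 with I-BET 762 (21 to 23). JQ1 and I-BET 762 both occupy the acetyl-lysine pocket of BET bromodomains. Both are triazolodiazepines, and the diazepine ring is fused to a thiophene in JQ1 and to a benzene ring in I-BET 762.

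Hedgehog ligands bind the membrane protein PTCH1, which otherwise holds SMO, a seven-pass protein of the primary cilium, in an inactive state. Once SMO is active, the GLI TFs are released from SUFU and from proteolytic processing and change the transcription of target genes. GLI1 is mainly an activator, GLI3 mainly a repressor, and GLI2 acts chiefly as an activator. BOC, CDON and GAS1 are coreceptors that bind ligand together with PTCH1, and HHIP is a membrane protein that binds ligand and withholds it. GLI1, PTCH1 and HHIP are textbook targets of GLI TFs, so their RNA is commonly read as pathway output. In adults the pathway is known mostly from tissue stem cells, stromal cells and tumors.

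Normalized counts (reads per gene divided by a size factor per library) are given throughout, unless a value is called a log2 fold change. Reads on genes ranged from 35564590 to 39658988 per library, and 3 reads were worth 2.73 to 3.30 normalized counts, a limit for counting error only. The fewest reads any of the 10 genes had in a library was 13, for GLI1 in a JQ1 library, and for BOC it was 14. A gene was called changed when limma with Benjamini-Hochberg adjustment over 14839 tested symbols gave an adjusted p under 0.05 and the fold change, taken on the scale of log2(normalized count + 1), was over 1.5, and all 10 genes passed the filter on low values. The sources used here do not say whether libraries came from separate cultures, so p-values measure only the spread between these libraries. Of 8 smooth muscle markers, 7 were analysed (MYH11 was not analysed here), and their summed level was 20500 to 21136 with VEH, 10661 to 11269 with JQ1 and 11822 to 12374 with I-BET 762. Of the 7, 6 fell with each inhibitor and SMTN did not, where 22.8% of all tested symbols were called lower with JQ1 and 17.9% with I-BET 762. DES, the muscle intermediate filament, averaged 187 with VEH, 7.79 with JQ1 and 20.1 with I-BET 762. The sum of 6 epithelial markers was 1231 to 1290, 517 to 612 and 507 to 547 in the same order, and 4 of the 5 tested fell with each inhibitor, against the same shares of all tested symbols. KRT18 was called with JQ1 only and CLDN4 with I-BET 762 only. CLDN4 had at most 9.84 normalized counts with I-BET 762, and its VEH libraries carried it past the filter at 10. Its lower values were thus built into its selection and are no result. The sums of 4 endothelial and 3 leukocyte markers were at most 7.40 in any library. The part of these shifts in the changes below was not tested, and in bulk RNA fewer cells expressing a gene and less RNA per cell cannot be told apart.

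With JQ1, 8 of the 10 Hedgehog genes fell, CDON rose and SUFU was not called. Over all tested symbols 22.8% were called lower and 13.3% higher, 36.1% in all. With I-BET 762, 7 fell, CDON rose, and GLI3 and SUFU were not called, against 17.9% of all tested symbols called lower, 8.96% higher and 26.9% in all. The median log2 fold change of the 10 genes was −1.15 with JQ1, where that of all tested symbols was 0.0076, and −0.69 with I-BET 762, where that of all tested symbols was −0.00063. In both comparisons the treated libraries of 9 genes all lay below the VEH libraries and those of CDON all lay above. Such separation was common in these data. With JQ1, 34.3% of tested symbols lay wholly below VEH and 34.1% wholly above (68.4% in all), and with I-BET 762, 36.2% lay below and 34.8% above (71.0% in all). Both comparisons use the same 3 VEH libraries, so their agreement is not a result. The study itself names GLI1, GLI2, GLI3 and SMO as lowered in these libraries, and the values of these 4 are therefore no independent evidence of direction.

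**Figure D1:**
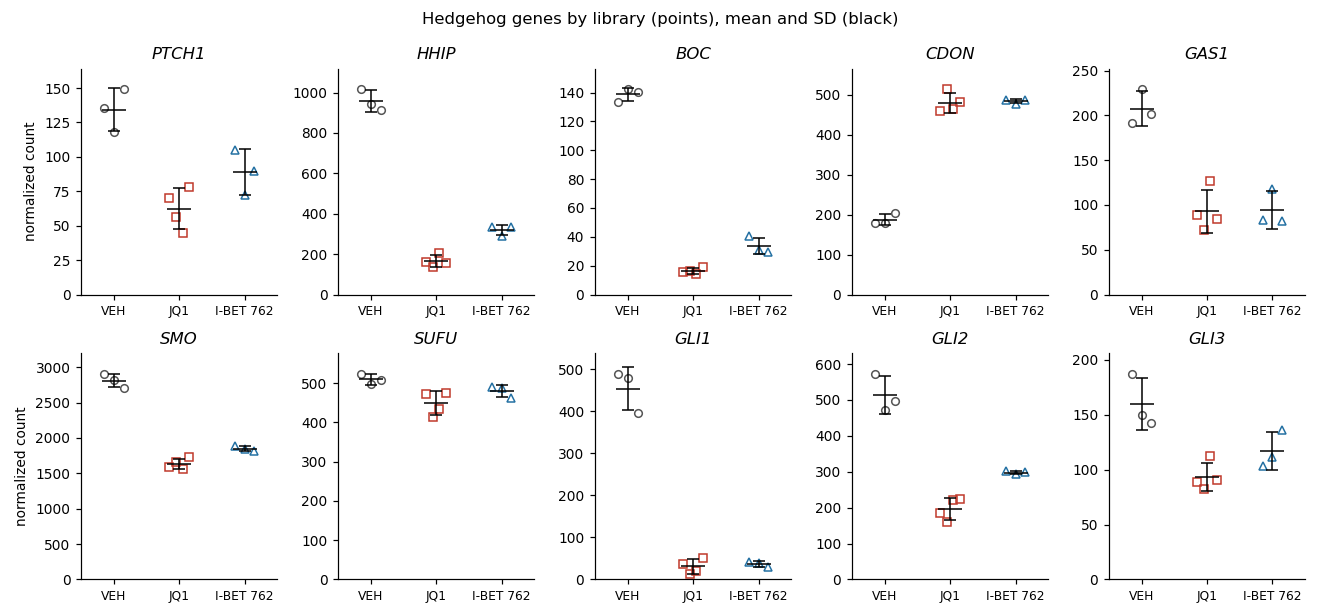
Normalized count (vertical axes, each from 0) of the 10 Hedgehog genes in the 3 VEH, 4 JQ1 and 3 I-BET 762 libraries, with 1 point per library and the mean and SD in black. Treated libraries lie below the VEH libraries for 9 genes and above them for CDON, and the gap is narrow for SUFU.

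PTCH1 (ENSG00000185920.19, minus strand of chr9:95442980-95517057, GRCh38) encodes the ligand receptor that restrains SMO. Its normalized count was 136, 118 and 149 in the VEH libraries, 70.3, 56.6, 45.0 and 78.1 in the JQ1 libraries and 105, 72.2 and 89.6 in the I-BET 762 libraries. Every treated library was thus below every VEH library, with I-BET 762 in between and overlapping JQ1. The log2 fold change was −1.12 with JQ1 (SE 0.19, limma adjusted p = 6.44e-05). With I-BET 762 it was −0.60 (SE 0.20, limma adjusted p = 0.0175), a 1.51-fold decrease that sat just past the threshold. That call was lost without VEH 15 (−0.52, limma adjusted p = 0.0709) and without I-BET 762 22 (−0.46, limma adjusted p = 0.0905).

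The stretch upstream of a PTCH1 start site is shown because it was the only one of the promoter windows at hand for these genes to hold the GLI binding motif searched, GACCACCCA on either strand. RefSeq windows (GRCh38.p14, 250 bases before to 50 after a start site) were matched for 8 of the 10 genes, 16 windows in all. The motif stood in 1 of them and in 83 of 35116 windows genome-wide (0.236%). Its last 7 letters alone, CCACCCA, stood in 9.19% of all windows and in 1 further window of these genes, for GLI2 at chr2:120735704-120735710. That GLI2 match lies 158 bases upstream of a start site at position 120735868, and both lie inside the span of GLI2. The 250 bases before the PTCH1 start site at position 95509266, which lies inside the span of the gene, are in no Gencode V44 exon of PTCH1 and run 5′ to 3′ on the gene's strand (chr9:95509267-95509516, minus strand), with the match, read on the opposite strand, in capitals. Its near end lies 164 bases upstream of the start site, and the stretch has 57.2% GC and 13 CpG.
PTCH1: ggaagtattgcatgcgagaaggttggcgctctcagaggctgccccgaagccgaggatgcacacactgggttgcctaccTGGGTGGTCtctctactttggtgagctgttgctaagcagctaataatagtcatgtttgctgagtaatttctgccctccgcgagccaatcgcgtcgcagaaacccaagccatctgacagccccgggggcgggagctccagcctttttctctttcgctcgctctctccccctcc
A match in these letters is a description of the window, and binding there was not measured.

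HHIP (ENSG00000164161.10, plus strand of chr4:144646156-144745271), the decoy that ties up ligand, stood at 1017, 941 and 912 in the VEH libraries. It was 160.4, 137, 205 and 158 with JQ1, and 336, 289.7 and 334 with I-BET 762. The 3 groups did not overlap, and the highest JQ1 library was under the lowest I-BET 762 library. HHIP fell 5.82-fold with JQ1 (log2 fold change −2.54, SE 0.11, limma adjusted p = 1.66e-11) and 2.99-fold with I-BET 762 (−1.58, SE 0.12, limma adjusted p = 2.23e-08).

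HHIP shares 813 exon bases on opposite strands with HHIP-AS1, an antisense RNA whose Gencode V44 span (minus strand of chr4:144642919-144661357) crosses the HHIP start. For that reason HHIP-AS1 was looked at, after the HHIP values were seen. It had 249.9, 280.1 and 228 normalized counts with VEH, 70.3, 65.3, 56.0 and 58.8 with JQ1, and 113, 121 and 86.6 with I-BET 762. Its log2 fold changes were −1.995 and −1.24 (limma adjusted p = 4.24e-09 and 4.14e-06), so both RNAs of the locus were lower with each inhibitor. The libraries were made strand-specific, but the strand setting of the counting is not given in the sources used here. If strand was not used, reads from the shared bases cannot be assigned to either gene. The 250 bases before the HHIP start site (chr4:144645906-144646155, plus strand) are shown because a RefSeq start site of HHIP-AS1 falls inside them, on the opposite strand. They have 74.8% GC and 34 CpG, against a median of 58.7% GC over all windows, and hold no match to the motif above.
HHIP: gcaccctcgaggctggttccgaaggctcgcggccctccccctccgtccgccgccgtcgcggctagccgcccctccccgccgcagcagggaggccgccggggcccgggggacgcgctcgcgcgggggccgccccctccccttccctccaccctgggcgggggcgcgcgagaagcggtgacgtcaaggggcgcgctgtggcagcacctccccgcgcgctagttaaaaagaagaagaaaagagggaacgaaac
None of these bases is in capitals, since neither form of the motif was found in them.

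Of the 3 coreceptors, BOC and GAS1 fell and CDON rose. BOC (ENSG00000144857.15, plus strand of chr3:113211003-113287459), a cell surface protein of the immunoglobulin superfamily, had 134, 142 and 140.1 normalized counts with VEH. It had 15.4, 16.3, 14.0 and 19.3 with JQ1 and 40.3, 31.1 and 29.5 with I-BET 762. All 3 groups were apart, with the JQ1 libraries lowest. The log2 fold change was −3.03 (SE 0.19, limma adjusted p = 8.67e-10) with JQ1, an 8.15-fold decrease. It was −2.02 (SE 0.20, limma adjusted p = 4.19e-07) with I-BET 762, a 4.07-fold decrease. BOC shares 530 exon bases with CFAP44 on the opposite strand, and CFAP44 was not called with either inhibitor (log2 fold changes 0.34 and 0.52).

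CDON (ENSG00000064309.16, minus strand of chr11:125955796-126063335), the relative of BOC with the same kind of extracellular domains, moved the other way. Its VEH libraries had 178, 179 and 203 normalized counts, its JQ1 libraries 458, 514, 463 and 481, and its I-BET 762 libraries 487, 477 and 486. The treated libraries formed a single cluster, well above VEH. The rise was 2.56-fold with JQ1 (log2 fold change 1.35, SE 0.08, limma adjusted p = 3.43e-10) and 2.58-fold with I-BET 762 (1.37, SE 0.08, limma adjusted p = 1.79e-09). CDON shares 2831 exon bases with VSIG10L2 on the opposite strand, a gene not analysed here. With the coreceptors set against each other within a library, the log2 ratio of CDON to BOC averaged 0.42 (SD 0.10) with VEH, 4.81 (SD 0.17) with JQ1 and 3.82 (SD 0.23) with I-BET 762. The ratios of treated and VEH libraries did not overlap, and the two-sided exact permutation test gave p = 0.0571 and 0.1, the smallest values that 3 against 4 and 3 against 3 libraries allow.

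GAS1 (ENSG00000180447.7, minus strand of chr9:86944362-86947506) encodes a coreceptor anchored in the membrane by a lipid, first described as a growth arrest gene. Its normalized count was 192, 229 and 201 with VEH, 89.0, 71.8, 127 and 84.2 with JQ1, and 82.7, 118 and 81.7 with I-BET 762. Each treated group held 1 library well above its others, JQ1 19 and I-BET 762 22, and both stayed below VEH. The log2 fold changes were −1.18 (SE 0.18, limma adjusted p = 2.48e-05) and −1.15 (SE 0.19, limma adjusted p = 9.55e-05), about the same size with either inhibitor.

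SMO (ENSG00000128602.11, plus strand of chr7:129188633-129213545), the transducer, was the most highly expressed of the 10 per length. Its VEH libraries had 2905, 2817 and 2712 normalized counts, its JQ1 libraries 1583, 1658, 1562 and 1726, and its I-BET 762 libraries 1887, 1843 and 1822. The groups stood in the order VEH, I-BET 762, JQ1 with no overlap. The fold decrease was 1.72 with JQ1 (log2 fold change −0.78, limma adjusted p = 1.13e-09) and 1.52 with I-BET 762 (−0.60, limma adjusted p = 1.16e-07), near the threshold of 1.5 in spite of the small spread. Without VEH 13 the log2 fold change with I-BET 762 was −0.58, under that threshold, with a limma adjusted p of 1.63e-06.

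SUFU (ENSG00000107882.12, plus strand of chr10:102503972-102633535), the cytoplasmic inhibitor that binds GLI proteins, moved least of the 10 genes. It had 523, 497 and 507 normalized counts with VEH, 472, 413, 433 and 476 with JQ1, and 491, 488 and 463 with I-BET 762. Both treated groups were below VEH, by little. With JQ1 the log2 fold change was −0.18 (95% interval −0.34 to −0.03, limma adjusted p = 0.0332), a 1.14-fold difference. That p was over 0.05 in each fit without 1 VEH library, and without JQ1 18 or JQ1 19, up to 0.101 without VEH 13. With I-BET 762 it was −0.08 (95% interval −0.25 to 0.08, limma adjusted p = 0.374). Halving or doubling lies outside both intervals.

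The 3 GLI TFs were lower in every treated library than in any VEH library, by very different amounts. GLI1 (ENSG00000111087.10, plus strand of chr12:57459785-57472268), the activator that is itself a pathway target, had 488, 478 and 395 normalized counts with VEH, 36.3, 14.1, 21.0 and 51.7 with JQ1, and 42.3, 40.1 and 28.5 with I-BET 762. The highest treated library was JQ1 20. The CV among the JQ1 libraries was 54.4%, the widest of any group among the 10 Hedgehog genes, at 13 to 51 reads. GLI1 had the largest fold decrease of the 10, 15.9-fold with JQ1 (log2 fold change −3.99, SE 0.31, limma adjusted p = 1.12e-08) and 12.1-fold with I-BET 762 (−3.59, SE 0.33, limma adjusted p = 1.71e-07). With 1 library left out at a time, the log2 fold change with JQ1 ranged from −4.29 to −3.69.

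GLI2 (ENSG00000074047.22, plus strand of chr2:120735623-120992653) had 572, 472 and 496 normalized counts with VEH, 185, 159.9, 220.1 and 225 with JQ1, and 301, 293 and 298 with I-BET 762. I-BET 762 libraries were tightly grouped between the other groups. The log2 fold changes were −1.38 (SE 0.11, limma adjusted p = 2.18e-08) and −0.78 (SE 0.12, limma adjusted p = 4.64e-05).

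GLI3 (ENSG00000106571.15, minus strand of chr7:41960949-42264100), the main repressor, had 187, 149.8 and 142 normalized counts with VEH, 89.0, 82.7, 112 and 90.3 with JQ1, and 103, 111 and 136 with I-BET 762. The treated groups overlapped each other, and I-BET 762 23 came close to the lowest VEH library. It fell 1.70-fold with JQ1 (log2 fold change −0.76, SE 0.15, limma adjusted p = 0.000227). With I-BET 762 the change was −0.45 (SE 0.16, limma adjusted p = 0.0225), under 1.5-fold and not called. That p was 0.117 without VEH 13, 0.0959 without I-BET 762 21 and 0.0673 without I-BET 762 22, by limma.

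The balance of activator to repressor RNA moved with the fall of GLI1. The log2 ratio of GLI1 to GLI3 within a library averaged 1.51 (SD 0.15) with VEH, −1.72 (SD 0.82) with JQ1 and −1.64 (SD 0.50) with I-BET 762. Differences from VEH were −3.23 and −3.15, with no overlap, and the two-sided exact permutation p of 0.0571 and 0.1 were again the smallest possible. The ratio of PTCH1 to SMO, the receptor to the protein it restrains, overlapped between groups. It averaged −4.38 (SD 0.20) with VEH, −4.71 (SD 0.31) with JQ1 and −4.38 (SD 0.26) with I-BET 762, and the exact permutation p was 0.229 and 1. RNA ratios say nothing of protein processing, which sets the activator and repressor forms of GLI proteins.

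The inhibitors were compared directly at the same dose and time, a single pair of compounds. BOC, HHIP and GLI2 were lower with JQ1 than with I-BET 762, 0 of the 10 were higher and 7 were not called, where 3.59% of all tested symbols were called lower, 1.73% higher and 5.31% in either direction. Without the fold threshold SMO passed as well, 4 lower of 10, where 27.3% of all tested symbols passed in either direction, 14.0% lower and 13.3% higher. The median log2 difference of the 10 genes was −0.36, and that of all tested symbols was −0.00012. BOC differed by −1.002 (95% interval −1.41 to −0.60, limma adjusted p = 0.00129) and HHIP by −0.96 (−1.20 to −0.72, limma adjusted p = 2.55e-05). GLI2 differed by −0.60 (−0.85 to −0.36, limma adjusted p = 0.00129), and its fold was under 1.5 without JQ1 17 (−0.57) and without JQ1 18 (−0.51). Libraries of JQ1 and I-BET 762 did not overlap for these 3 genes and for SMO, a gap that 16.3% of all tested symbols showed with JQ1 lower and 17.5% with JQ1 higher (33.8% in all).

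For the other genes the difference was small or its interval wide. SMO differed by −0.18 (95% interval −0.29 to −0.07, limma adjusted p = 0.0145), a 1.13-fold difference, and that p was 0.0706 without I-BET 762 21. PTCH1 differed by −0.52 (−0.92 to −0.12, limma adjusted p = 0.0538) and was called without JQ1 20 (−0.63, limma adjusted p = 0.0213) or without I-BET 762 22 (−0.66, limma adjusted p = 0.0401). For CDON the difference was −0.02 (−0.18 to 0.15) and for SUFU −0.10 (−0.26 to 0.05), so a 1.5-fold difference lies outside these intervals. GAS1 differed by −0.03 (−0.41 to 0.36), GLI3 by −0.32 (−0.63 to −0.0045, limma adjusted p = 0.124) and GLI1 by −0.40 (−1.06 to 0.27). The interval for GLI1 is wide enough to hold a difference of 1.5-fold in one direction, and that for GLI3 too.

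**Figure D2:**
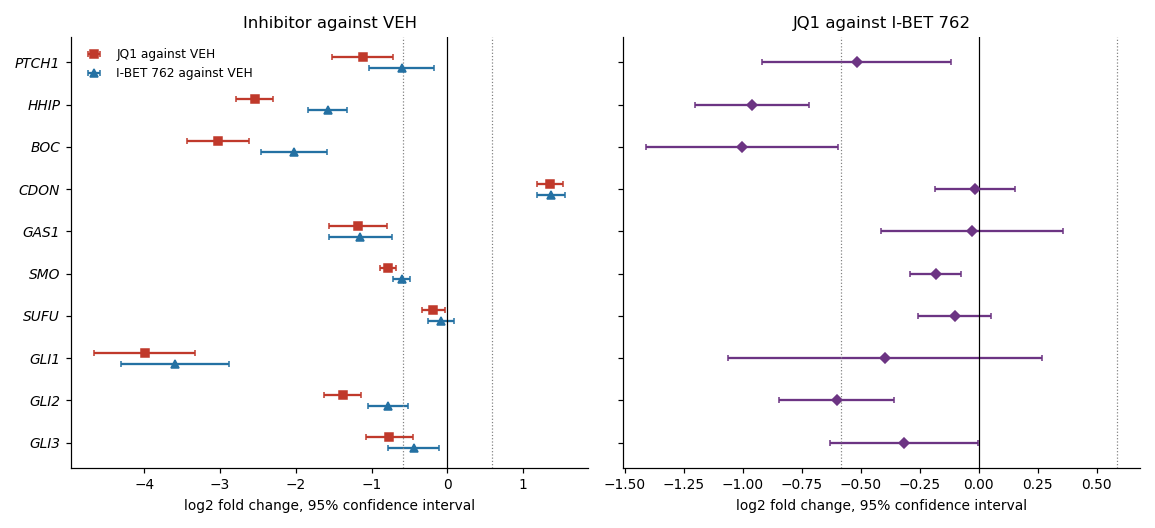
Log2 fold change of the 10 genes (points) with its 95% confidence interval (bars), for each inhibitor against VEH on the left and JQ1 against I-BET 762 on the right, from limma over 3 VEH, 4 JQ1 and 3 I-BET 762 libraries. Dotted lines mark a fold of 1.5. CDON alone lies to the right on the left panel, at 1.35 and 1.37, and on the right panel BOC and HHIP lie farthest from 0.

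To compare genes with each other, normalized counts were divided by the length of merged exons in Gencode V44. With VEH, SMO was highest at 592 ± 20.3 per kb (SD, n = 3), followed by GLI1 at 99.5 ± 11.2, HHIP at 80.1 ± 4.54, SUFU at 74.0 ± 1.88, GLI2 at 66.5 ± 6.77 and GAS1 at 65.9 ± 6.21. A lower tier held BOC at 13.4 ± 0.44, GLI3 at 11.6 ± 1.74, CDON at 9.38 ± 0.70 and PTCH1 at 7.78 ± 0.90 per kb. The library ranges of SUFU and GLI2, of GLI2 and GAS1, and of BOC and GLI3 overlapped, so the order within these pairs is not resolved.

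With JQ1 the order was SMO at 344, SUFU at 65.2, GAS1 at 29.6, GLI2 at 25.6, CDON at 24.0, HHIP at 13.8, GLI3 at 6.78, GLI1 at 6.75, PTCH1 at 3.62 and BOC at 1.57 per kb (mean, n = 4). GLI1 thus went from the place after SMO to a level that overlapped GLI3 and PTCH1, and GAS1, GLI2 and CDON also overlapped as neighbours. With I-BET 762 the order was SMO at 389.6, SUFU at 69.9, GLI2 at 38.5, GAS1 at 29.96, HHIP at 26.8, CDON at 24.3, GLI3 at 8.47, GLI1 at 8.11, PTCH1 at 5.15 and BOC at 3.26 per kb (mean, n = 3). Neighbours whose ranges overlapped there were GAS1 and HHIP, HHIP and CDON, and GLI3 and GLI1. SMO stood first and SUFU next in both treated groups, and CDON passed BOC in both on this scale. In normalized counts not divided by length, CDON was above BOC with VEH too (at least 178 against at most 142). The exon models count every annotated isoform, so a gene with long or rarely used exons, such as CDON with 19924 bases, is understated by this scale.

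**Figure D3:**
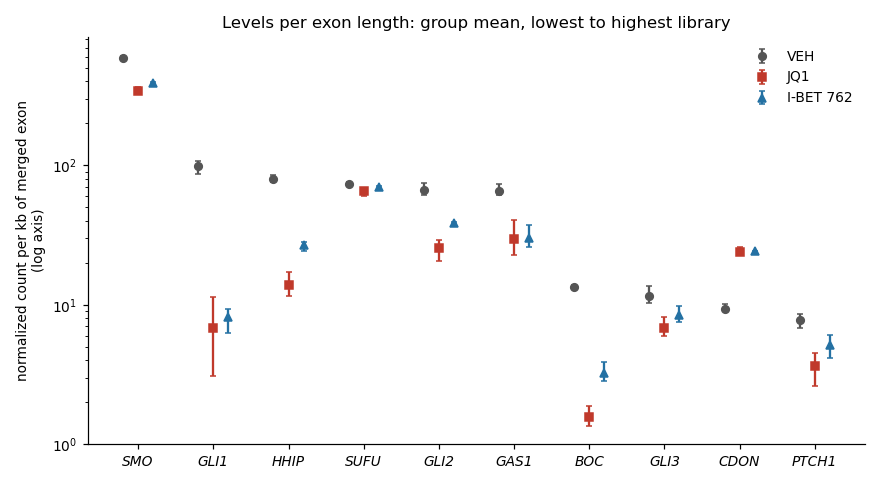
Normalized count per kb of merged exon on a log axis for the 10 genes, ordered by their VEH level, with the mean of each group (points) and its lowest and highest library (bars, 3 VEH, 4 JQ1 and 3 I-BET 762 libraries). SMO stays at the top in all groups, while GLI1 drops from 99.5 per kb to 6.75 and 8.11.

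The rest of the pathway was read from 5 lists, with means and SDs of normalized counts over 3 VEH, 4 JQ1 and 3 I-BET 762 libraries. Of 8 genes for ligands and their release, 6 were tested. Ligand RNA was scarce, with at most 2 reads for SHH and 9 for IHH in any library, both below the filter. DHH had 9.90 ± 2.99 (SD, n = 3) normalized counts with VEH, and its log2 fold changes of 0.44 and 0.70 were not called. SCUBE2, which helps release lipid-bearing ligand, averaged 140.3 (SD 13.5) with VEH, 64.5 (SD 11.2) with JQ1 and 80.5 (SD 8.40) with I-BET 762. It was the single gene of the list called, lower with both inhibitors. Over all tested symbols, 22.8% were called lower with JQ1 and 17.9% with I-BET 762. The list's medians were −0.09 and 0.12. Genes of the lists that were not called against VEH are named after their values were seen.

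Among 6 other receptors and surface modulators, 5 were tested, and the list's median log2 fold changes were −0.24 with JQ1 and −0.07 with I-BET 762. LRP2, a large endocytic receptor, had at most 3 reads in any library. GPC3, a glypican that competes for ligand, was not called against VEH and was lower with JQ1 than with I-BET 762 (−1.002, limma adjusted p = 0.0478), at 7.38 ± 2.35 (SD, n = 4) against 15.5 ± 3.88 (SD, n = 3) normalized counts.

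The list for the cilium and the relay from SMO held 12 genes, 11 of them tested, and members moved in both directions. GPR161, a ciliary receptor that raises cAMP and keeps the pathway off, fell from a mean of 1715 (SD 7.76) to 391 (SD 22.1) with JQ1 and to 704 (SD 29.5) with I-BET 762. It was also lower with JQ1 than with I-BET 762 (−0.85, limma adjusted p = 3.69e-07). EFCAB7, which anchors the EVC complex next to SMO, fell by 1.53 and 1.17 on the log2 scale. IFT88 and KIF3A, genes needed to build cilia, rose with both inhibitors, IFT88 from a mean of 512 (SD 10.7) to 1310.2 (SD 96.5) and 1208 (SD 25.3), and KIF3A by log2 fold changes of 0.93 and 0.87. Medians of the list were 0.16 and 0.23, and EVC2 had at most 2 reads.

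Of 12 kinases and ubiquitin ligases that act on GLI proteins, all were tested and 0 were called with either inhibitor. Over all tested symbols, 36.1% were called in either direction with JQ1 and 26.9% with I-BET 762. By limma adjusted p alone, without the fold threshold, 8 were higher and 3 lower with JQ1, where 36.0% of all tested symbols were higher and 35.6% lower (71.7% in all). With I-BET 762, 5 were higher and 2 lower, where 29.9% of all tested symbols were higher and 31.3% lower (61.1% in all). The list's medians were 0.22 and 0.15.

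Of 12 targets reported for GLI TFs, 11 were in the table and 10 were tested. With JQ1, 4 fell and 1 rose, where 22.8% of all tested symbols were called lower and 13.3% higher. With I-BET 762, 5 fell and 0 rose, where 17.9% were called lower and 8.96% higher. FOXF2, a forkhead TF of mesenchyme, fell from a mean of 207 (SD 24.1) to 43.4 (SD 10.3) and 32.3 (SD 10.8). BMP4, a secreted growth factor, had log2 fold changes of −1.88 and −2.21, and CCND2, a G1 cyclin, −1.87 and −1.41. The study also names CCND2 as lowered in these libraries, so its direction is no independent evidence. FOXM1, a TF of the cell cycle, fell by 1.62 and 0.99. Outside the naming rule and chosen after their values were seen are the other 2 genes called. CCND1, another G1 cyclin, rose with JQ1 (1.12) and was not called with I-BET 762 (0.58), and FOXF1 fell with I-BET 762 (−1.55) and was not called with JQ1 (−1.08). The list's medians were −0.81 and −0.70, and MYCN had at most 5 reads. Many of these genes have other regulators, and no GLI binding was measured.

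**Figure D4:**
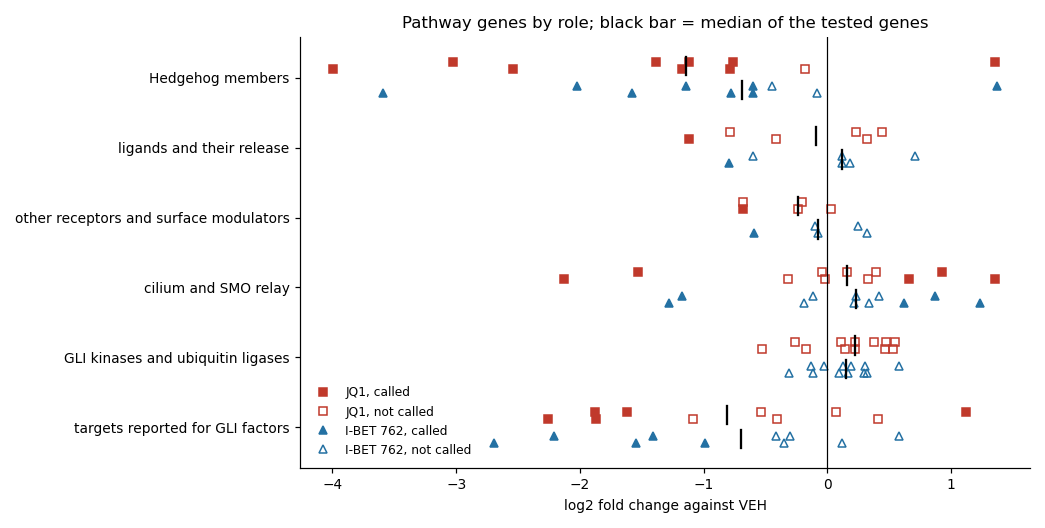
Log2 fold change against VEH (horizontal axis) of each tested gene of the Hedgehog genes and of 5 pathway lists, with JQ1 as squares and I-BET 762 as triangles, filled where called. Black bars mark list medians, which lie at −1.15 and −0.69 for the 10 genes and between −0.81 and 0.23 for the other lists.

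Genes whose log2 values ran closest to those of 4 of the Hedgehog genes over the 10 libraries were also listed, as a description. For GLI1 they were CCDC88B, KDELR1 and DGAT2 (Pearson r = 0.996, 0.995 and 0.994), for GLI2 USP21, HEG1 and TENM2 (0.996, 0.995 and 0.994), for SMO ZNF839, SH3RF2 and AMIGO2 (0.998, 0.996 and 0.996) and for CDON CZIB, SP4 and RABIF (0.998, 0.998 and 0.997). The points fall into treated and VEH libraries and share their scaling, so a high r was frequent. Of 14360 symbols, 718 were above 0.95 with GLI1, 780 with GLI2, 1532 with SMO and 959 with CDON.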

How the data were processed

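RNA from SK-UT-1 cells was sequenced as strand-specific total RNA libraries. Per the labels and the study's methods, the authors used FastQC 0.73, Trimmomatic, HISAT2 2.2.1, hg38, featureCounts 2.0.3, Gencode V41 genes and DESeq2 normalization, and excluded outlier samples. VEH 16 and I-BET 762 24 were not analysed here. As deposited, each value is the log2 of a normalized count to which 1 was added. Steps of 1 read were recovered (99.74 to 99.77% of values were whole within 0.02 reads), which gave reads per library. In 12 replicate pairs, 0 were identical.

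Symbols with 10 or more normalized counts in at least 3 libraries were tested with limma 3.58.1 (intensity trend, R 4.3.3) over all 10 libraries. Ratios were compared by exact permutation (scipy 1.17.1, Python 3.11.15). Scripts were tested on simulated data. Alternatives changed the pseudocount, filter, scaling, trend, groups fitted, fold threshold and libraries, and used limma-voom on recovered reads. Positions come from Gencode V44.

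Genes and lists were chosen with earlier results of these data known. Named were the 10 Hedgehog genes, up to 4 called genes of each list by size of change with JQ1, and the 3 symbols most correlated with GLI1, GLI2, SMO and CDON. Some genes of the pathway lists are not reported here.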

Additional observations from a re-analysis of the deposited data

How the results depend on the processing

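No paired analysis was possible because the replicate numbers 13 to 23 of the 10 libraries are all different. With a fold threshold of 2, the number of Hedgehog genes called fell to 5 with I-BET 762 and 1 between the inhibitors. GLI3 (1.70-fold) and SMO (1.72-fold) were under that threshold with JQ1. Leaving out 1 library at a time gave 9 to 9 with JQ1, 7 to 8 with I-BET 762 and 2 to 4 between the inhibitors. Shares of all tested symbols were not computed for that threshold or these fits, so the counts only describe how calls depend on settings. Scaled to equal totals, which moved the median of all tested symbols by −0.18 and −0.10, the median of the 10 genes was −1.33 with JQ1 and −0.79 with I-BET 762. Relative to that shift it moved little, but the share of calls that were lower went from 63.06% to 77.53% with JQ1, from 66.7% to 75.51% with I-BET 762 and from 67.51% to 81.97% between the inhibitors. PTCH1 then passed between the inhibitors (−0.60), and with a pseudocount of 5 it missed the fold threshold with I-BET 762 (−0.58). Leaving out 1 library, the median with I-BET 762 ranged from −0.76 to −0.65. Values near 0 changed sign, from −0.049 to 0.0056 for CDON and −0.19 to 0.14 for GAS1 between the inhibitors, and −0.11 to 0.14 for the ratio of PTCH1 to SMO with I-BET 762. The cause was not tested. A filter at a mean of 100 dropped PTCH1 and BOC. The direction of all other changes of the 10 genes, of their medians and of the ratios was the same under the alternatives run. The pathway lists, markers, HHIP-AS1, added families, levels per kb and correlations were not examined under them.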

Other observations

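Families related to the Hedgehog genes were added after their values were seen. GLIS and ZIC genes encode zinc finger proteins related to the GLI TFs, and 2 of 8 passed the filter. ZIC1 fell from a mean of 169 (SD 9.78) normalized counts with VEH to 95.6 (SD 13.6) with JQ1 and 84.8 (SD 2.43) with I-BET 762. ZIC4 had 12.02 to 20.3 with VEH, 0 to 3.04 with JQ1 and 0 to 5.90 with I-BET 762. It passed the filter only through its VEH libraries, so lower treated values were built into its selection and are no result. The other 6 had at most 10 reads in any library.

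Of 7 genes for proteins that work with CDON or BOC at the cell surface, UNC5B and NEO1, receptors for netrin, rose with both inhibitors. Over all tested symbols, 13.3% were called higher with JQ1 and 8.96% with I-BET 762. UNC5B went from 58.7 (SD 7.07) to 401 (SD 31.8) and 297 (SD 9.12), and NEO1 from 406 (SD 23.2) to 815 (SD 52.6) and 833 (SD 53.9). SPAG9, a scaffold for stress kinases, rose with JQ1 (log2 fold change 0.84) and was not called with I-BET 762 (0.57). CDH2, CTNNB1, ABL1 and BNIP2 were not called, with log2 fold changes from −0.27 to 0.44 over both inhibitors.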
